A study of Homo sapiens with 6 samples.

Results

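The genes described here are 33 listed genes of sterol and fatty acid synthesis, among the 35716 genes of the count table. They were taken by matching each Ensembl gene ID to a symbol on the list, with no threshold on their levels. All 33 were found, and 32 passed the low-count filter that left 15202 genes for testing. The exception was STARD4, a carrier protein that moves cholesterol between membranes. It had 1, 9 and 3 counts in the untreated libraries and 2, 3 and 1 in the triptolide libraries.

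Messenger RNA was sequenced in 6 libraries. All came from MIA PaCa-2, a long-established human line from a pancreatic ductal adenocarcinoma, labelled as wild type. The 3 untreated libraries came from cells kept for 24 h in DMEM with 10% serum. The 3 triptolide libraries came from cells given 10 nM triptolide, a diterpenoid that binds a subunit of the transcription factor TFIIH, for 24 h. No vehicle is named for the untreated cells, and nothing in the labels ties a library to a culture of its own. The p-values therefore speak of the spread among these libraries, part of which could be technical. The series title names autophagy and the extracellular matrix, and lipid synthesis is not part of its stated question.

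Cells make cholesterol from acetyl-CoA through mevalonate, isoprenoid diphosphates and squalene, and they make palmitate from the same acetyl-CoA through malonyl-CoA and fatty acid synthase. Palmitate is then elongated and desaturated. Most genes of both routes are known targets of the SREBP transcription factors, which the escort protein SCAP carries from the endoplasmic reticulum to the Golgi for cleavage and which INSIG proteins hold back when sterols are plentiful. Tumour cells often run fatty acid synthesis at a high rate, and pancreatic carcinoma lines also take up lipid from their medium.

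Total counts were 16302961 to 23262713 per library. Every pair of libraries differed by more than sampling noise, with a chi-square per degree of freedom from 4.96 (untreated replicates 1 and 2) to 78.4. Pairs within a group gave 4.96 to 61.9 and pairs between groups gave 27.6 to 78.4, so the ranges overlapped. The first principal component held 61.4% of the variance. The keratin gene KRT8 stood at 1893.6 ± 341 CPM in untreated cells (CPM, reads of the gene relative to the TMM-scaled library size, SD, n = 3 libraries), while EPCAM and CDH1, epithelial surface genes on the same list of carcinoma markers, did not exceed 0.166 and 0.28 CPM in any library.

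With triptolide, 1 member rose and 1 fell. FADS2, the delta-6 desaturase that starts the synthesis of long polyunsaturated fatty acids, rose 2.19-fold, and SLC27A3, a fatty acid transport family protein with acyl-CoA synthetase activity, fell 4.75-fold. The other 30 tested members did not pass the threshold, which was an edgeR quasi-likelihood adjusted p under 0.05. The calls came to 6.25% of the tested members, beside 15.9% of all tested genes. In each direction, 10.0% of all tested genes rose and 5.82% fell. No member of the mevalonate pathway, of the steps from squalene to cholesterol, of SREBP control or of palmitate synthesis was called.

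Changes of the members were small. Their median log2 fold change was 0.0306, beside -0.00404 over all tested genes, with 19 members above 0 and 13 below. The median size of the log2 fold change, without its sign, was 0.16 in the members and 0.31 in all tested genes. A change of at least 2-fold was seen in 2 members, and in 10.1% of all tested genes. For 30 of 32 members the approximate 95% interval of the fold change lay within 2-fold in either direction, which was so for 66.4% of all tested genes. It lay within 1.5-fold for 16 members, and for 23.4% of all tested genes. The members were all well detected, with a mean of at least 5 CPM for each of the 32. All tested genes include ones with lower means, so the values given beside the members are not matched for level. A 95% interval within 2-fold bounds a change, and a p above the threshold does not show that a level was the same. Both concern levels relative to the other RNA of a library, and a shift shared by all RNA would not show. In bulk RNA, fewer cells of a kind and less RNA per cell cannot be told apart.

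**Figure D1:**
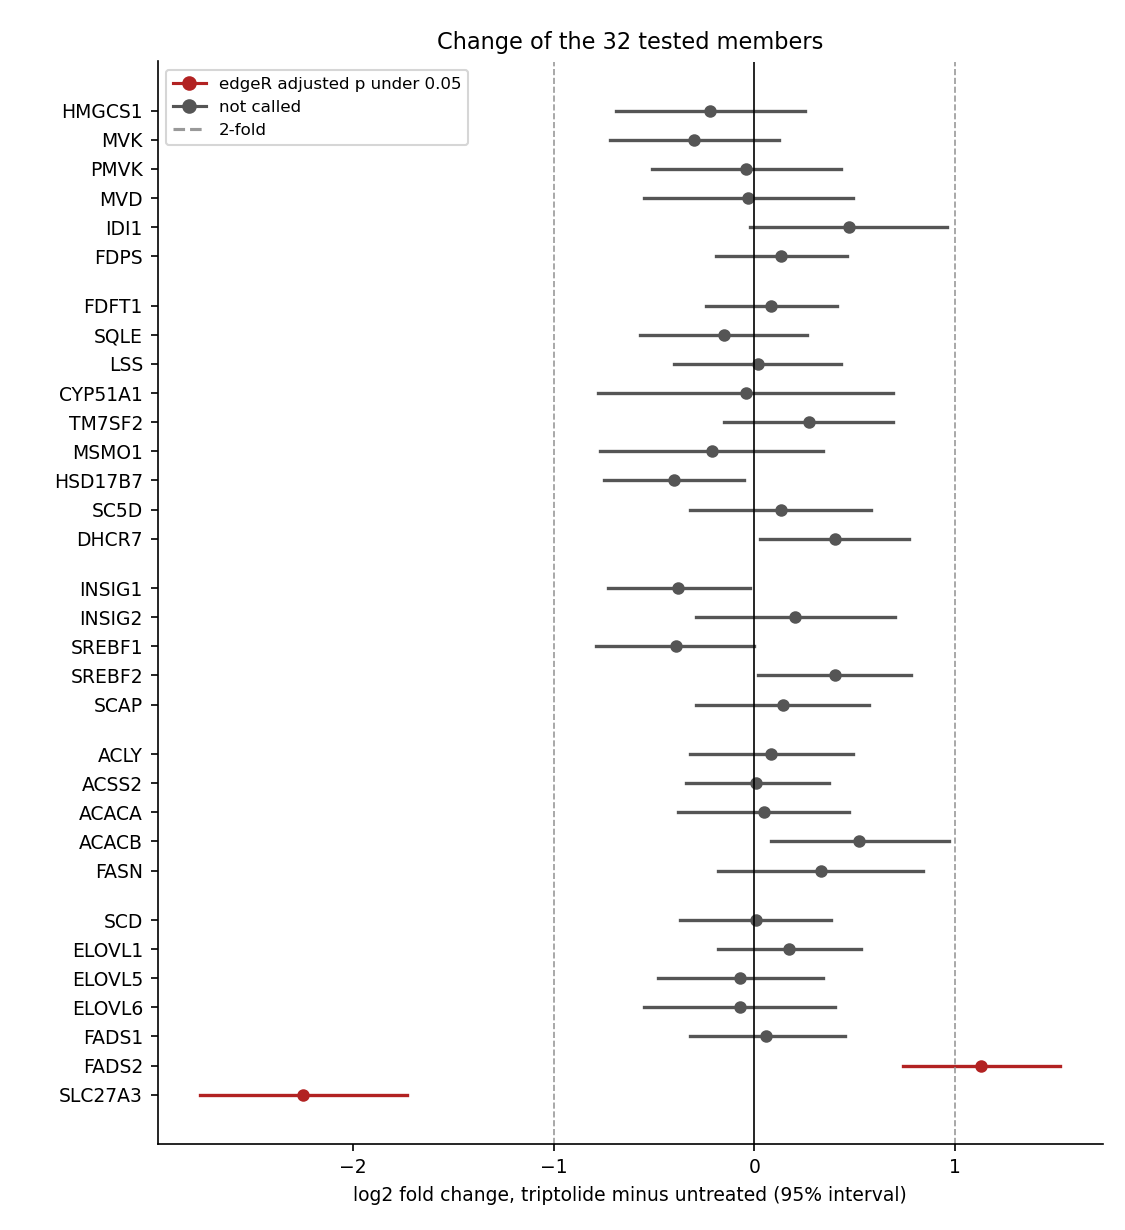
Log2 fold change of the 32 tested members, triptolide minus untreated, with approximate 95% intervals from the edgeR fit, grouped by role from the mevalonate pathway at the top to desaturation, elongation and uptake at the bottom. FADS2 at 1.13 and SLC27A3 at -2.25 are the coloured points, and the intervals of the other 30 members lie between the dashed lines at 2-fold.

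Levels were compared between members as CPM per kilobase of GENCODE 29 exons. In untreated cells the order was led by ACLY at 95.4 ± 18.7, ELOVL1 at 92.6 ± 9.84, FASN at 82.6 ± 6.18 and SCD at 63.9 ± 11.6 CPM per kb (SD, n = 3 libraries each). The neighbours ACLY and ELOVL1 differed by less than either SD, and ELOVL1 and FASN by slightly more than either. ELOVL5 followed at 39.8 ± 5.69, PMVK at 29.7 ± 7.2 and FDPS at 27.1 ± 1.79 CPM per kb. These were enzymes of palmitate synthesis, of fatty acid desaturation and elongation, and of the mevalonate pathway. At the other end stood ELOVL6 at 0.82 ± 0.109, ACACB at 0.601 ± 0.0975 and STARD4 at 0.0422 ± 0.0406 CPM per kb. The order was nearly kept with triptolide, with a rank correlation of 0.976 over the 33 genes, a description across genes whose points share libraries and lengths. FADS2 went from place 30 to place 24, SLC27A3 from 28 to 32 and IDI1 from 21 to 16.

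Summed over the 33 members, untreated replicates 1 to 3 held 3368.6, 3229.0 and 2966.4 CPM and triptolide replicates 1 to 3 held 4106.5, 2991.3 and 3323.6 CPM. The groups overlapped, and triptolide replicate 1 was the highest. Without FASN the sums were 2529.6, 2475.7 and 2237.6 CPM untreated and 2714.0, 2314.9 and 2476.5 CPM with triptolide. The groups overlapped there as well.

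**Figure D2:**
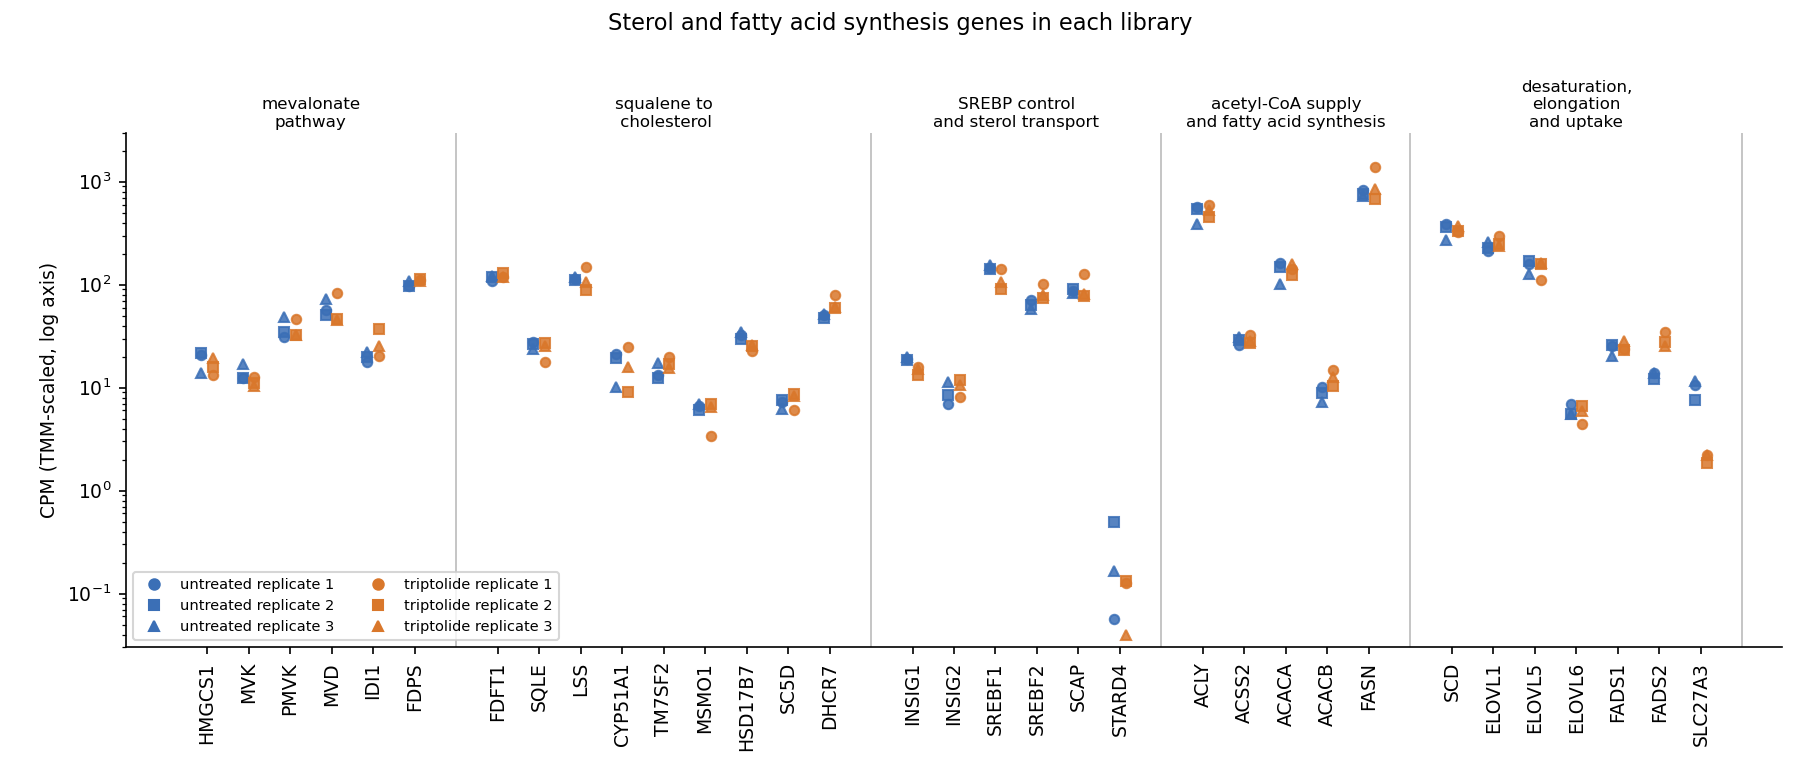
CPM of each of the 33 members in each library, on a log axis, with untreated libraries in blue and triptolide libraries in orange and replicates 1, 2 and 3 as circles, squares and triangles. In most members the colours overlap; FADS2 and SLC27A3 at the right show separate groups, and STARD4 lies below 1 CPM in every library.

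In the mevalonate pathway, which turns acetyl-CoA into farnesyl diphosphate, 0 of 6 tested members rose or fell, and the median log2 fold change was -0.03. FDPS, the synthase of farnesyl diphosphate, had 96.4, 97.6 and 108 CPM in untreated cells and 110, 113 and 109 CPM with triptolide. Its triptolide libraries all lay above the untreated ones by a small margin, and its log2 fold change was 0.13 ± 0.15 (SE, edgeR adjusted p = 0.583). MVD, the decarboxylase that makes isopentenyl diphosphate, had 56.3, 50.9 and 72.5 CPM untreated and 83.6, 46.9 and 45.8 CPM with triptolide. Its highest and its lowest library were both from the triptolide group. The log2 fold changes of HMGCS1, the cytosolic synthase at the start of the route, of MVK and of PMVK, the 2 kinases that act on mevalonate and its phosphate, were -0.22, -0.30 and -0.04. IDI1, the isomerase of isopentenyl diphosphate, had 17.7, 19.8 and 22.4 CPM untreated and 20.2, 37.4 and 25.2 CPM with triptolide. Triptolide replicate 2 stood highest and the groups overlapped, with a log2 fold change of 0.47 ± 0.22 (SE, edgeR adjusted p = 0.178). IDI1 was 1 of 5 members whose libraries are given here although the naming rule did not take them, chosen after their values were seen. The others were HSD17B7, DHCR7, SREBF2 and INSIG1, and ACACB and FADS1 were added for the ratios.

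From squalene to cholesterol, 0 of 9 tested members rose or fell, with a median log2 fold change of 0.02. FDFT1, the squalene synthase at the branch to sterols, had 109, 120 and 121 CPM untreated and 120, 131 and 118 CPM with triptolide. The groups overlapped, and the 95% interval of its fold change ran from 0.844 to 1.32. LSS, which closes squalene epoxide into lanosterol, had 113, 110 and 118 CPM untreated and 149, 89.5 and 106 CPM with triptolide, so that the triptolide libraries lay on both sides of the untreated ones. SQLE, the squalene epoxidase that controls flux into sterols, had a log2 fold change of -0.15 and an interval of the fold from 0.672 to 1.20.

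Further down the sterol route, HSD17B7, the sterol 3-keto reductase, had 32.4, 29.9 and 35.0 CPM untreated and 22.5, 25.2 and 26 CPM with triptolide. All 3 triptolide libraries lay below the untreated ones, and the log2 fold change of -0.40 ± 0.16 (SE) did not pass the threshold (edgeR adjusted p = 0.118). DHCR7, the last reductase of one branch to cholesterol, had 51.0, 47.3 and 52.0 CPM untreated and 78.8, 59.0 and 60.6 CPM with triptolide. All 3 triptolide libraries lay above the untreated ones, and the log2 fold change was 0.40 ± 0.17 (SE, edgeR adjusted p = 0.131). TM7SF2, MSMO1 and SC5D, which reduce, demethylate and desaturate the sterol rings, had log2 fold changes of 0.27, -0.21 and 0.13. CYP51A1, the lanosterol demethylase, varied most within the groups, from 10.1 to 21.0 CPM untreated and from 9.01 to 24.6 CPM with triptolide. Of its 3584 exon bases in GENCODE 29, 2844 (79.4%) are shared with AC000120.2, a protein-coding model on the same strand. The count table does not hold that model. The annotation used for counting is not given, so that the CYP51A1 counts remain uncertain. Other overlaps are smaller, the next being 18.6% of the FDPS exon bases shared with RUSC1-AS1 on the other strand. For 5 members, among them CYP51A1, FDPS and HSD17B7, 15 pseudogene copies are named, and the 12 found in the table had means of at most 0.5 CPM.

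In SREBP control and sterol transport, 0 of 5 tested members rose or fell, with a median log2 fold change of 0.14. The genes for the 2 SREBP precursors lay on opposite sides of 0. SREBF1, whose products mainly drive fatty acid genes, had 146, 143 and 155 CPM untreated and 141, 91.3 and 106 CPM with triptolide. The triptolide libraries lay lower, with replicate 1 only just so, and the log2 fold change was -0.39 ± 0.18 (SE, edgeR adjusted p = 0.162). SREBF2, which mainly drives sterol genes, had 70.8, 64.1 and 58.6 CPM untreated and 102, 74.6 and 78.6 CPM with triptolide. All 3 triptolide libraries lay higher, and the log2 fold change was 0.40 ± 0.17 (SE, edgeR adjusted p = 0.142). SCAP, the escort, had 86.0, 89.8 and 83.5 CPM untreated and 127, 77.6 and 81.3 CPM with triptolide. Its triptolide replicate 1 stood above all others, and the other 2 below the untreated libraries.

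INSIG1, the retention protein that SREBP itself induces, had 18.9, 18.7 and 19.8 CPM untreated and 15.7, 13.4 and 15.1 CPM with triptolide. The groups did not overlap, and the log2 fold change was -0.38 ± 0.17 (SE, edgeR adjusted p = 0.145). INSIG2, the other retention protein, had a log2 fold change of 0.20. The promoters of SREBF2 and INSIG1 are shown because SREBF2 was the 1 member with a full match to the sterol regulatory element among the members searched, and INSIG1 carries an E-box, a CCAAT box and a TATA box together. Sequences are the 250 bases before the start site in RefSeq (GRCh38.p14), 5′ to 3′ on the gene's strand, with matches on either strand in capitals.
SREBF2, chr22:41832855-41833104, plus strand: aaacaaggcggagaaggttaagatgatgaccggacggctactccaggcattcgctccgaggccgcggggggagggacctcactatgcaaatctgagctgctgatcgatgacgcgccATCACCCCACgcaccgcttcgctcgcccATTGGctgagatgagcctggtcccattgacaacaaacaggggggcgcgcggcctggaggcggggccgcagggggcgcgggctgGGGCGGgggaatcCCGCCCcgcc
INSIG1, chr7:155297628-155297877, plus strand: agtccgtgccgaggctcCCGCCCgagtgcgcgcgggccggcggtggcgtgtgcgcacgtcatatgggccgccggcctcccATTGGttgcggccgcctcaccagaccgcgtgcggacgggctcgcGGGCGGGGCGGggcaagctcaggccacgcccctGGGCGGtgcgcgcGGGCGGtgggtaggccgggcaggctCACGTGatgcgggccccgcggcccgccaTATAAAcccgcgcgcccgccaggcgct
In SREBF2 the capitals mark, in order, ATCACCCCAC at base -134 from the start, a CCAAT box read on the other strand (ATTGG) and GC boxes. In INSIG1 they mark a CCAAT box on the other strand, GC boxes of which a pair shares bases, the E-box CACGTG at base -55 and TATAAA at base -27.

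Promoter motifs were searched on both strands in windows of 300 bases, from 250 before to 50 after each RefSeq start. The windows numbered 42 and covered 30 members, and 35116 windows covered all genes. The sterol regulatory element, searched as the SREBF2 match above with any base at the sixth position, was in 2.38% of the member windows and 0.154% of all windows, which is 1 window, that of SREBF2. Its core, the same letters without the first base, lies inside it and gave the same member window and 1.13% of all windows. The E-box CACGTG was in 14.3% of member windows and 7.26% of all windows, in ELOVL5, INSIG1, LSS, SC5D and SCAP. CCAAT was in 61.9% and 34.6%, covering 22 members, and GGGCGG in 88.1% and 45%, covering 29 members. TATAAA was in 4.76% and 11.5%, in HMGCS1 and INSIG1. A match is a stretch of letters in this window and was not tied to the values. Other spellings of the sterol element and bases outside the window were not searched, so a missing match does not show that a gene lacks one.

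In acetyl-CoA supply and palmitate synthesis, 0 of 5 tested members rose or fell, with a median log2 fold change of 0.08 and all 5 values above 0. FASN, fatty acid synthase, had 839, 753 and 729 CPM untreated and 1392.5, 676 and 847 CPM with triptolide. Triptolide replicate 1 stood above all other libraries and triptolide replicate 2 was the lowest, so that the groups overlapped. The log2 fold change of 0.33 ± 0.24 (SE, edgeR adjusted p = 0.374) was -0.01 without triptolide replicate 1. ACLY, which splits citrate into acetyl-CoA in the cytosol, had 565, 542 and 386 CPM untreated and 597, 456 and 530 CPM with triptolide. The groups overlapped, with untreated replicate 3 the lowest, and the interval of the fold change ran from 0.799 to 1.41.

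ACSS2, which makes acetyl-CoA from acetate, had a log2 fold change of 0.01 and ACACA, the cytosolic acetyl-CoA carboxylase, one of 0.05. ACACB, the carboxylase at the mitochondrial surface whose malonyl-CoA restrains fatty acid import, had 10.1, 8.81 and 7.27 CPM untreated and 14.8, 10.4 and 12.6 CPM with triptolide. All 3 triptolide libraries lay above the untreated ones. Its log2 fold change of 0.52 ± 0.21 (SE) did not pass the threshold (edgeR adjusted p = 0.105).

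In desaturation, elongation and uptake, 1 of 7 tested members rose and 1 fell. The 2 most abundant members of this group in CPM were SCD and ELOVL1. SCD, the stearoyl-CoA desaturase that makes oleate, had 392, 363 and 273 CPM untreated and 328, 332 and 371 CPM with triptolide. The groups overlapped, and the interval of the fold change ran from 0.773 to 1.30. ELOVL1, which elongates saturated very long chains, had 211, 226 and 259 CPM untreated and 300, 248 and 237 CPM with triptolide, with overlapping groups and a log2 fold change of 0.17. ELOVL5, which elongates polyunsaturated chains, and ELOVL6, which turns palmitate into stearate, both had a log2 fold change of -0.07.

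FADS2 (ENSG00000134824) had 14, 12 and 13.8 CPM untreated and 34.4, 27.6 and 25.3 CPM with triptolide, from 217 to 251 and from 546 to 634 counts. The lowest triptolide library stood well above the highest untreated one. The mean went from 13.3 ± 1.08 to 29.1 ± 4.71 CPM (SD, n = 3 libraries each). This is 1.13 ± 0.18 (SE) on the log2 scale, with a 95% interval from 0.74 to 1.52 and an edgeR adjusted p of 0.00172. Leaving out each library in turn gave 1.01 to 1.22, with the highest edgeR adjusted p at 0.0143. FADS1, the delta-5 desaturase that acts on the products of FADS2 and elongation, had 25.4, 25.9 and 20.3 CPM untreated and 23.5, 23.1 and 28.2 CPM with triptolide. Its groups overlapped, and its 95% interval ran from -0.32 to 0.45 on the log2 scale. The 2 genes are neighbours on chromosome 11 on opposite strands and share 490 exon bases in GENCODE 29, where reads cannot be assigned without strand. FADS2 also shares 49 bases with FEN1 on its own strand, whose log2 fold change was 0.23.

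The starts of FADS2 and FADS1 are shown because 1 neighbour rose and the other did not pass the threshold. The counts are per gene and do not say which start was used. Bases are RefSeq (GRCh38.p14), 250 before a start, on the gene's strand, with GC boxes in capitals. Of the 2 RefSeq windows of FADS2, the one with a match is printed.
FADS2, chr11:61816154-61816403, plus strand: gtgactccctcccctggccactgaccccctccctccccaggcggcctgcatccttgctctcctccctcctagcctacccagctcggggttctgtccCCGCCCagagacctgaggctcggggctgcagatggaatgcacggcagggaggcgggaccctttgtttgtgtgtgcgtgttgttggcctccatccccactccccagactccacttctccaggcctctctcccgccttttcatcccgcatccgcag
FADS1, chr11:61817004-61817253, minus strand: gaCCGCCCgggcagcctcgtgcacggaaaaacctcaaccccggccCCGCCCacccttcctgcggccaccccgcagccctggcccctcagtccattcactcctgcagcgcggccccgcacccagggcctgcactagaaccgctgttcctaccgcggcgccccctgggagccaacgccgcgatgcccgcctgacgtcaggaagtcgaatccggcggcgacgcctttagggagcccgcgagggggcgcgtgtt
Both stretches hold GC boxes, 1 in FADS2 and 2 in FADS1, and neither holds the sterol element, its core or the E-box.

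SLC27A3 (ENSG00000143554) had 10.7, 7.54 and 11.6 CPM untreated and 2.2, 1.84 and 2.24 CPM with triptolide, from 136 to 211 and from 35 to 56 counts. The highest triptolide library lay far below the lowest untreated one. The mean went from 9.96 ± 2.14 to 2.09 ± 0.221 CPM (SD, n = 3 libraries each). This is -2.25 ± 0.24 (SE) on the log2 scale, with a 95% interval from -2.76 to -1.73 and an edgeR adjusted p of 0.000127. Leaving out each library in turn gave -2.42 to -2.13, with the highest edgeR adjusted p at 0.00147. On the same strand SLC27A3 shares 455 of its 5470 exon bases (8.32%) with INTS3, a subunit of the Integrator complex, which is named for this overlap after its values were seen. INTS3 had 97.0, 87.3 and 92.6 CPM untreated and 57.9, 53.6 and 57.2 CPM with triptolide. It fell 1.64-fold, -0.71 on the log2 scale (edgeR adjusted p = 0.00778). With scaling on ribosomal protein genes it was still lower, at -0.55, and its call was lost (edgeR adjusted p = 0.246). Its part in the SLC27A3 counts was not tested.

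The promoter of SLC27A3 is shown for the member with the largest change. It is the RefSeq sequence (GRCh38.p14) of the 250 bases before the start, with GC boxes on either strand in capitals.
SLC27A3, chr1:153775157-153775406, plus strand: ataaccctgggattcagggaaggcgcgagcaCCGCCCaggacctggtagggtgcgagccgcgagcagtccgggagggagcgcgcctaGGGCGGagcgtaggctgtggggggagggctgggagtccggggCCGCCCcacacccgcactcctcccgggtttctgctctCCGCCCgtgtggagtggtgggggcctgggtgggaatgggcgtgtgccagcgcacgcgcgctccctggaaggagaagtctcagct
The capitals mark 4 GC boxes, and the window holds no match to the CCAAT box, the E-box, the TATA box or the sterol element.

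**Figure D3:**
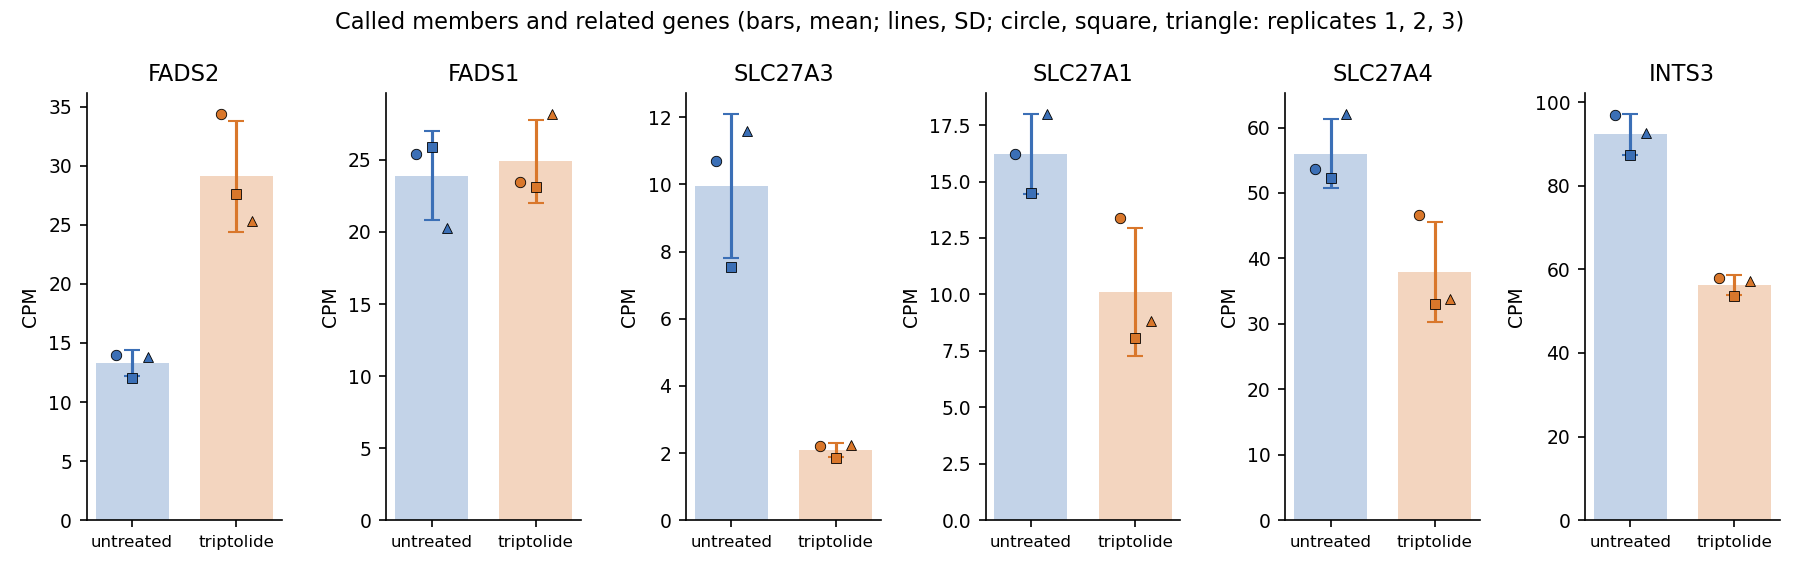
CPM of the called members FADS2 and SLC27A3 beside FADS1, SLC27A1, SLC27A4 and INTS3, with bars for the mean, lines for the SD and points for the 3 libraries of each group. The groups overlap in FADS1 and are separate in the other 5 genes.

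The ratios of 4 pairs of related members were formed within each library from CPM per kb. FADS2 over FADS1 was 0.51, 0.431 and 0.631 in untreated cells and 1.36, 1.11 and 0.832 with triptolide, 2.08 times higher by the mean of logs. SREBF2 over SREBF1 was 0.516, 0.477 and 0.401 untreated and 0.768, 0.868 and 0.791 with triptolide, 1.75 times higher. ACACB over ACACA was 0.0552, 0.0537 and 0.0641 untreated and 0.0925, 0.0757 and 0.0706 with triptolide, 1.38 times higher. In these 3 pairs every triptolide library lay above every untreated one. INSIG1 over INSIG2 was 2.97, 2.38 and 1.89 untreated and 2.08, 1.23 and 1.52 with triptolide, with overlapping groups. The exact two-sided permutation p was 0.1 for the first 3 pairs, the smallest that 3 against 3 libraries can give, and 0.2 for INSIG1 over INSIG2. Adjusted over the 4 pairs, the exact permutation p was 0.133 for the first 3 and 0.2 for the last. The pairs were picked with the values known, so that these p-values carry no independent weight.

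**Figure D4:**
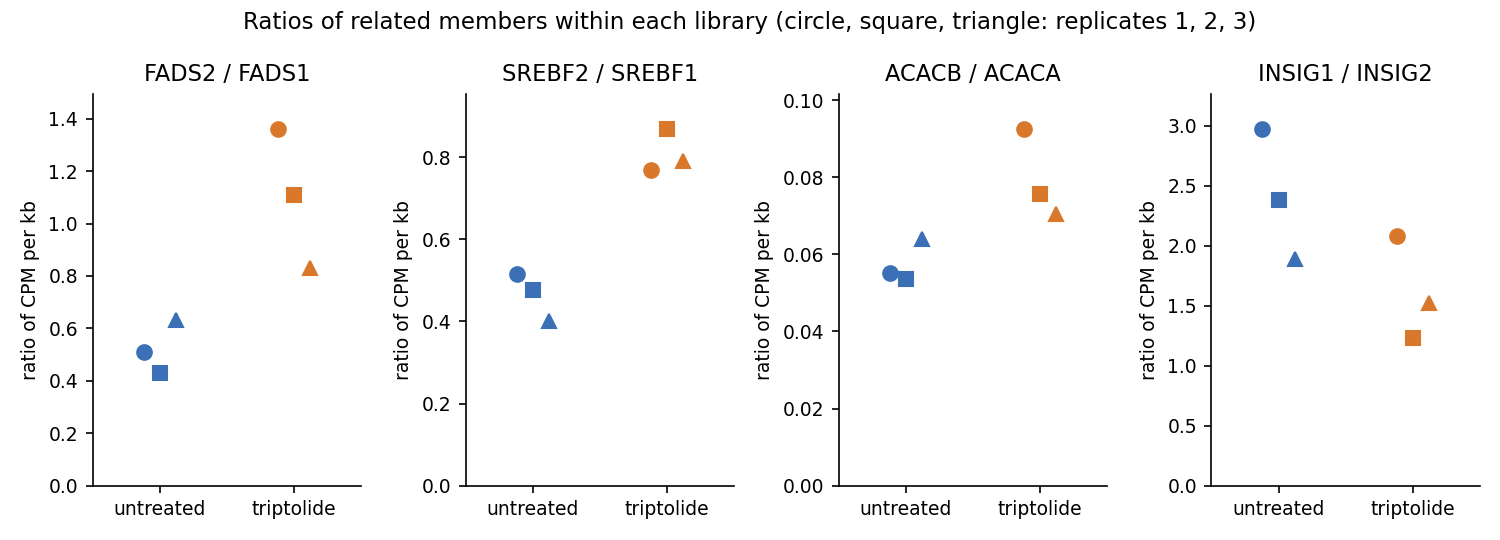
Ratio of CPM per kb for 4 pairs of related members in each library, with untreated libraries in blue, triptolide libraries in orange and replicates 1, 2 and 3 as circles, squares and triangles. FADS2 over FADS1, SREBF2 over SREBF1 and ACACB over ACACA are higher in all 3 triptolide libraries, while INSIG1 over INSIG2 overlaps.

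By overlap of the groups alone, 5 members had all triptolide libraries above all untreated ones, namely FDPS, DHCR7, SREBF2, ACACB and FADS2, where 19.8% of all tested genes did so. The reverse held for 4 members, HSD17B7, INSIG1, SREBF1 and SLC27A3, and for 16.9% of all tested genes. At an unadjusted edgeR p under 0.05, 8 members passed, 4 in each direction, beside 30.9% of all tested genes. In every role group but the mevalonate pathway and palmitate synthesis, such members lay on both sides.

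Much of the spread among the triptolide libraries went with base composition. In triptolide replicate 1, the log2 deviation from the other 2 triptolide libraries had a rank correlation with transcript GC content of 0.771 over the 32 members, and of 0.756 over 15077 genes. For triptolide replicates 2 and 3 it was -0.649 and -0.751 over the members, and for the untreated libraries it ran from -0.496 to 0.334. These are correlations across genes of the same libraries, given as a description. Each library was set against the others of its group, so the values within a group are tied to one another. For the 14 members with a GC content over 55% the median deviation of triptolide replicate 1 was 0.40, and for the 9 members under 45% it was -0.45. FASN, at 65.3% GC, deviated by 0.88, and MSMO1, at 38.1% GC, by -0.89. CYP51A1 stood off this pattern, with a deviation of 1.01 at 41.5% GC. FADS2 deviated by 0.37 and SLC27A3 by 0.10, both less than their change between groups.

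**Figure D5:**
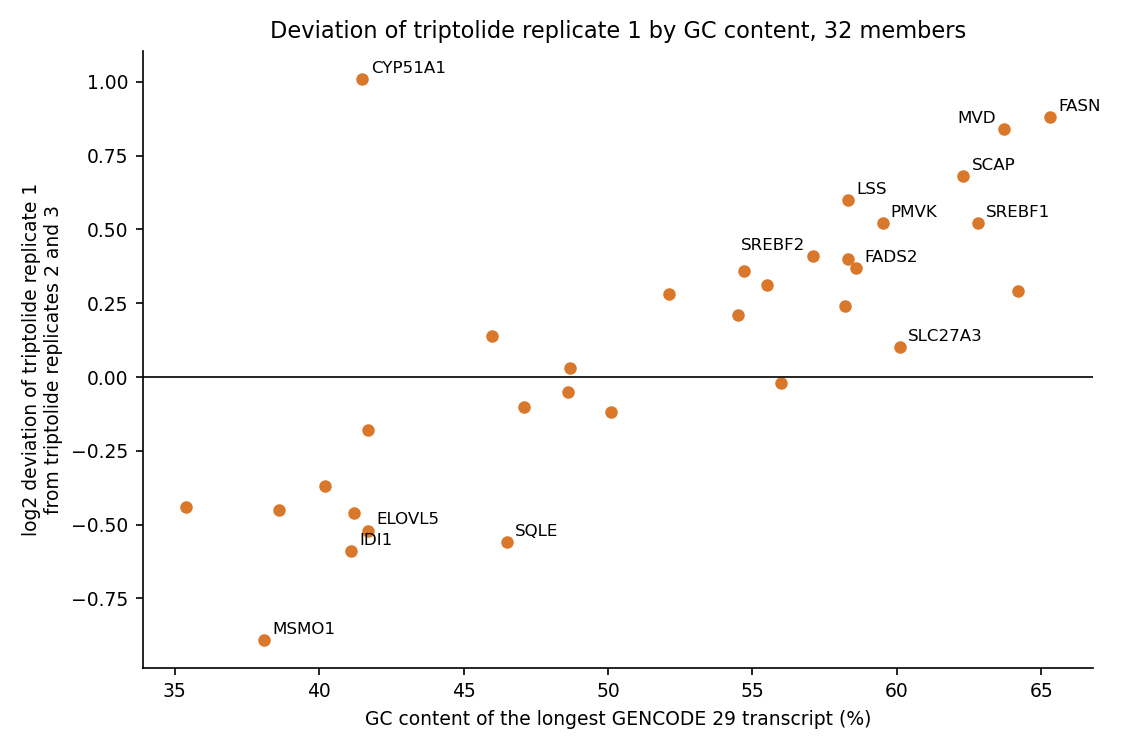
Log2 deviation of triptolide replicate 1 from the mean of triptolide replicates 2 and 3 for the 32 tested members, on the vertical axis, against GC content of the longest GENCODE 29 transcript in percent. Members rich in GC such as FASN lie above 0 and members poor in GC such as MSMO1 below, with CYP51A1 apart at 1.01.

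With a GC offset per library, 3 members rose and 2 fell, beside 15.3% of all tested genes higher and 9.64% lower. FADS2 had a log2 fold change of 1.07 (edgeR adjusted p = 0.000388) and SLC27A3 of -2.28 (0.00016). The added calls were IDI1 at 0.61 (edgeR adjusted p = 0.0316), DHCR7 at 0.34 (0.03) and SREBF1 at -0.47 (0.0112). Without triptolide replicate 1, IDI1 at 0.66 (edgeR adjusted p = 0.0439) and SREBF1 at -0.57 (0.0215) were called beside FADS2 and SLC27A3, and DHCR7 was not. SREBF2 stayed uncalled with the offset, at 0.34 (edgeR adjusted p = 0.0725).

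Of 115 genes in 5 other lipid lists, 100 were tested. Of these, 9 rose and 4 fell, which is 13.0%, beside 15.9% of all tested genes (10.0% higher and 5.82% lower). Most of the calls in these lists were lost in some fits. Without untreated replicate 2, 2 of the 13 remained (CYP27A1 and MYLIP), and without untreated replicate 1 or triptolide replicate 3, 6 of the 13 remained in each case. With scaling on ribosomal protein genes 5 remained, and none of them was lower. The mitochondrial sterol hydroxylase CYP27A1 stood at 0.129 ± 0.0633 CPM untreated and rose to 1.92 ± 0.286 CPM (SD, 3 libraries each, edgeR adjusted p = 0.000149), from 7 counts over the untreated group to 121. MYLIP, a ubiquitin ligase for lipoprotein receptors, rose 1.99-fold to 8.72 ± 0.693 CPM (edgeR adjusted p = 0.00492).

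Among genes of sterol efflux, esterification and trafficking, 4 of 18 tested rose and 0 fell, beside 10.0% and 5.82% of all tested genes. CYP27A1, MYLIP and the sterol carrier STARD5 (2.72-fold) were among them. STARD5 was low, with 21 counts over the untreated group and 67 with triptolide. Its edgeR adjusted p reached 0.0905 when a library was left out. On the list of 17 other sterol synthesis and SREBP processing genes, 1 fell, ERLIN2, which takes part in the degradation of sterol-regulated proteins (1.47-fold lower). Of 21 other genes of fatty acid synthesis, elongation and activation, 1 rose, the carbohydrate-responsive factor gene MLXIPL (1.58-fold). Of 23 genes of glycerolipid synthesis and lipid droplets, 2 rose and 1 fell, namely the triglyceride synthase DGAT1 (1.88-fold), the lipase PNPLA2 (1.6-fold) and its inhibitor HILPDA (1.58-fold lower).

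Of 21 genes of uptake and beta-oxidation, CPT2, which acts in mitochondrial import of fatty acids, rose 1.64-fold, and PPARG and SLC27A1 fell 1.80-fold and 1.62-fold. SLC27A1 encodes a transporter of the same family as SLC27A3. SLC27A4, also of that family and named after its value was seen, had a log2 fold change of -0.57 (edgeR adjusted p = 0.0544), and it passed with the GC offset (adjusted p = 0.00186).

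Markers of several cell types, among them carcinoma and ductal epithelium, were also compared between the groups. Of 26 tested placental trophoblast genes of 35 listed, 24 rose. Over all tested genes 10.0% rose and 5.82% fell, and these shares stand beside every marker list here. Some of the 24, such as PSG2 and HSD3B1 with 0 counts in all untreated libraries, passed the low-count filter only through the triptolide libraries. For such genes a rise was nearly fixed in advance, so the count of 24 is only a description. The 35 genes summed to 35.2 to 38.3 CPM untreated and 636 to 1024.1 CPM with triptolide. CSH1 and CSH2, near-identical genes of placental lactogen that may share reads, were the most abundant. On that list, 8 genes had 0 counts in all untreated libraries and 0 genes had so with triptolide. Of 19 tested fibroblast and mesenchymal genes, 11 fell, with sums of 1878.3 to 2071.0 CPM untreated and 1579.8 to 1751.5 CPM with triptolide. Of 7 tested carcinoma and ductal genes, KRT18 and VIM fell and 5 were not called, with sums of 4482.5 to 6605.6 and 3330.4 to 4027.3 CPM. VIM made up 1813.0 to 2855.2 CPM of the untreated sums and 1075.2 to 1728.5 CPM of the triptolide sums. The separate sums therefore cannot be read as a fall of the ductal genes as a set. Without triptolide replicate 3 the edgeR adjusted p was 0.0627 for KRT18 and 0.117 for VIM, and VIM also lost its call without untreated replicates 2 or 3 or triptolide replicate 1 (adjusted p = 0.08, 0.12 and 0.104). Of 7 tested blood and endothelial genes, 5 rose and 1 fell, with sums of 24 to 29 and 29.8 to 45.5 CPM. Of the 7 acinar and islet genes in the table only CEL was tested and it was not called, with sums of 2.24 to 3.36 and 3.83 to 5.42 CPM. The part of these markers in the FADS2 and SLC27A3 values was not tested.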

How the data were processed

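Poly(A)-selected RNA of 6 libraries was sequenced as paired reads of 150 bp, per the labels' protocols. The authors deposited whole-number read counts per Ensembl gene, and the totals differ between libraries as those of raw counts do. The submitters' processing notes name HISAT2 and featureCounts, without versions. Genome build, annotation, strand setting and the handling of shared reads were not given in the sources used here. Counts of overlapping or antisense genes are therefore uncertain. Exons of 16 members overlap another gene in GENCODE 29. Groups follow each sample's treatment label, although the design text uses the words control group for the treated cells.

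IDs were matched to symbols for 35639 of 35716 genes. Counts were filtered with filterByExpr and scaled by TMM. The group effect was fitted in edgeR 4.0.16 (glmQLFit, glmQLFTest, R 4.3.3), and p-values of the 15202 genes were adjusted together by Benjamini-Hochberg. Standard errors come from the fold change and its F statistic, and 95% intervals from these and t quantiles. GC content was available for 99.2% of tested genes. Total counts of 16302961 to 23262713 make 1 count 0.0399 to 0.063 CPM. Tried beside the edgeR fit were RLE size factors, library totals, scaling on 84 ribosomal protein genes, DESeq2 1.42.0, limma-voom (limma 3.58.1), no filter on low counts, only genes with at least 5 CPM on average, a replicate block, a GC offset per library (25 GC bins) and each library left out in turn. Promoters are from RefSeq (GRCh38.p14), and figures were drawn with matplotlib 3.10.9.

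The members and lists were chosen with earlier results of these data known. All members are accounted for, with values per library for called members and for up to 2 of the most abundant members of each role group. Up to 3 called genes of each other lipid list and the most abundant markers are named, apart from a result that is not reported here.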

Additional observations from a re-analysis of the deposited data

How the results depend on the processing

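FADS2 and SLC27A3 were called in the same direction under all 15 alternatives. Of 480 values of single members, 475 stayed on their side of the threshold and 5 gained a call, those of IDI1, DHCR7 and SREBF1. Among values called in neither fit, 51 changed sign, in 15 members whose log2 fold change was at most 0.33 in size (FASN). With the GC offset, 2329 of all genes were higher and 1466 lower, and 3 members were higher and 2 lower. With a mean of at least 5 CPM, 584 genes were higher and 336 lower, and the median log2 fold change of the members was 0.111 beside 0.00385 for all genes. With library totals it was 0.0905 beside 0.0613, and 1671 genes were higher and 594 lower (73.8% higher, beside 63.3% in the reported fit). With ribosomal protein scaling it was 0.187 beside 0.168, and 1180 genes were higher and 128 lower (90.2% higher), so that the shift of the members was close to that of all genes. Leaving out each library in turn gave 953 to 1580 genes higher and 407 to 1034 lower, with 1 to 2 members higher, 1 to 2 lower and a members' median of 0.0383 to 0.108. The fewest genes were called without untreated replicate 2 (953 and 407), with 1135 and 529 without untreated replicate 1 and 1119 and 457 without triptolide replicate 3. The added members' calls came without triptolide replicate 1, and the highest members' median without triptolide replicate 2. Where these values moved, the cause was not tested, apart from fewer libraries or genes where the setting removes them.

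With a block for the replicate number, 1523 genes were higher and 856 lower, 1 member was higher and 1 lower, and the members' median was 0.0419. The same-numbered libraries did not deviate together (r = 0.0286, -0.0411 and -0.439). With so few libraries, these correlations cannot show whether same-numbered libraries shared a culture or a day. Of the 13 calls in the other lipid lists, 8 held with the block. In the separate fit of genes that reach a mean of 5 CPM, without the block, 7 of the 10 still tested held. The widest interval among uncalled members, that of CYP51A1, ran from 0.582 to 1.62 fold, and STARD4, with 13 and 6 counts in the groups, was too low to compare.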
